A study of Caenorhabditis elegans with 2 samples.

Results

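The Hedgehog-related and patched-related genes of Caenorhabditis elegans were described here by the regions that chromatin immunoprecipitation with sequencing (ChIP-seq) of the GATA factor ELT-3 gave at their loci. They are the protein-coding genes of the WBcel235 annotation whose symbol is wrt-, grd-, grl-, hog-, qua-, ptr- or ptc- with a number, and 85 of 19973 nuclear protein-coding genes met this rule: 10 wrt, 16 grd, 31 grl, 1 hog, 1 qua, 24 ptr and 2 ptc genes. The other 19888 genes were the background. The rule uses symbols and no measured value, although the family was taken up with earlier results of these data known. The worms were whole L2 larvae of mixed sex from strain OP75 (unc-119(ed3) III; wgIs75), a transgenic line that stably carries ELT-3 with a GFP-FLAG tag at its C terminus, and both libraries of the series came from this 1 group. The labels list them as biological replicates 1 and 2 without saying how the cultures were kept apart, and no untagged, input or mock sample was analysed here. The whole larva was used, so signal from the epidermis and from other tissues is mixed.

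The worm has no canonical Hedgehog ligand and no Smoothened, but it has secreted proteins that join an N-terminal Wart, Ground or Ground-like domain to, in some members, the self-cleaving Hog domain of Hedgehog. The wrt (warthog), grd (groundhog) and grl (ground-like) genes encode these, and the hog and qua (quahog) genes are counted in the same family. The ptc and ptr genes encode membrane proteins with the sterol-sensing domain of Patched. Several members on both sides are needed for moulting, and many are active in the epidermis, where ELT-3 is expressed.

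Each deposited list holds 30000 regions, peaks and background together, 1 list for each replicate and 1 for the pooled reads. A region was given to a gene when its summit lay in the gene body or up to 2000 bp upstream, called the gene window here, and regions were ranked by the authors' signal value within a list, rank 1 being the highest. The scale of the signal value is not stated, so values are compared only within a list. The pooled signal value was 28.4 at rank 1000, 21.7 at rank 5000 and 16.4 at the median. The files give no read totals, and sequencing depth is therefore not known for either library. With 1 group of 2 samples no test between conditions exists, and none was made across genes: shares carry 95% Wilson intervals that cover the counting of genes or regions only, and none of the differences below is called particular to the family.

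Sequences are shown for regions that ranked high in both replicates and for regions that hold a GATA site. The 3 highest pooled regions on chromosomes II to V and X that had a summit within 150 bp among the 5000 highest of both replicates, and the 4 highest there with TGATAA, are given below as 201 bases centred on the summit. They are from the plus strand of WBcel235 (ce11), read 5′ to 3′, and capitals mark the GATA motif, written WGATAR (A or T, then GATA, then A or G), on either strand, so that TTATCA is TGATAA on the minus strand. These 7 were picked after the values were seen.

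grl-21 coding exon, chrIV:10737821-10738021: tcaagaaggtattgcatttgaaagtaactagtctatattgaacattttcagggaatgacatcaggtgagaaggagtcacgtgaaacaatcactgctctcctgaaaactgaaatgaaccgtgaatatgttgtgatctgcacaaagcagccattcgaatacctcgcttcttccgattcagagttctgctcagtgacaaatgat
wrt-9 coding exon, chrX:1589297-1589497: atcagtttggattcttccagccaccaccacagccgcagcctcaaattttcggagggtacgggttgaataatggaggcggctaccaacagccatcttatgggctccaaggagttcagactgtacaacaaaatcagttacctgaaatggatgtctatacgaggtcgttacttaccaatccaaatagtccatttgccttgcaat
grl-15 intron, chrIII:12234986-12235186: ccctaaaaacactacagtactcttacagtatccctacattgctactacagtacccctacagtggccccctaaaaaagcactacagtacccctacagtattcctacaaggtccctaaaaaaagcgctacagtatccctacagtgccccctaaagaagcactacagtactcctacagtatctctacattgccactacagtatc
grl-2 intron, chrV:12945741-12945941: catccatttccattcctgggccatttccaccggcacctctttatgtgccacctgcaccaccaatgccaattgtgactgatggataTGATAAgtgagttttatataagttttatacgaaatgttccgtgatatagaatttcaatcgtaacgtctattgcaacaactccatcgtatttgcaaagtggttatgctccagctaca
qua-1 upstream, chrII:8198218-8198418: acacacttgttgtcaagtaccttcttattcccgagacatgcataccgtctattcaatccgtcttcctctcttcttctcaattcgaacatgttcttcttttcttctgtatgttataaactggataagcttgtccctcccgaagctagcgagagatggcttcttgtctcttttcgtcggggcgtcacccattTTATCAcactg
grd-16 intron, chrIV:2477592-2477792: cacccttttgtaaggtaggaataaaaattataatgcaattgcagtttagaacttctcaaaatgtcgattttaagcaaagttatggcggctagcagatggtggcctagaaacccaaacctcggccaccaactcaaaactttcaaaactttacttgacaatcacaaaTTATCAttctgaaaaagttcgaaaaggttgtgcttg
wrt-9 upstream, chrX:1575138-1575338: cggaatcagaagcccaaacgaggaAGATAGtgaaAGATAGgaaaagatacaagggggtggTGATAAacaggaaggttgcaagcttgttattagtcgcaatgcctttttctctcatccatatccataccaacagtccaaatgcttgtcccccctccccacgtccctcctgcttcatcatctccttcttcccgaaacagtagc

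The grl-21, wrt-9 coding exon and grl-15 sequences have no capitals. The grl-15 region also lies in the window of fbxa-89 and the grl-2 region in that of T16G1.3. The grl-15 stretch repeats short runs of the same letters, and the reference marks 77.6% of its bases as repetitive or of low complexity, as it does 62.7% of the grd-16 bases. The grl-2 site lies with its middle 12 bp from the summit, the wrt-9 upstream TGATAA 37 bp away beside 2 AGATAG, the grd-16 site 68 bp away and the qua-1 site 93 bp away, near the edge of the 100 bp searched.

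The family carried ELT-3 regions at most of its genes. The pooled list had a summit in the windows of 76 of 85 members (89.4%, Wilson interval 81.1 to 94.3%), against 74.1% of other protein-coding genes. The replicate 1 list had one at 76 members against 74.5%, and the replicate 2 list at 73 against 74.6%. No list had a region for 4 members (4.71%, interval 1.85 to 11.5%), against 10.5% of other genes. These were the ground-like genes grl-8, grl-9, grl-24 and grl-28, named after their values were seen. At the other end, 0 of 85 members carried a region of the authors' short list that passed their irreproducible discovery rate (IDR) threshold, where 0.121% of other genes did, which is less than 1 gene in a family of this size. The Wilson interval for 0 of 85 reaches 4.32%. The lowest q-value at a member was 0.412. Such values were the rule, since 15 of the 30000 pooled regions had a q-value under 0.05. The same held for 15 of the replicate 2 regions and 0 of the replicate 1 regions.

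High ranks were more frequent in the family than in the background. A region among the pooled list's 5000 highest lay in the windows of 35 of 85 members (41.2%, interval 31.3 to 51.8%), against 21.7% of other genes, and the background share is below the interval. The replicates gave similar counts, 37 members in replicate 1 (43.5%, interval 33.5 to 54.1%, against 22.3%) and 34 in replicate 2 (40.0%, interval 30.2 to 50.6%, against 21.5%). Among the 1000 highest the pooled list had 14 members (16.5%, interval 10.1 to 25.8%, against 4.95%). Replicate 1 had 13 there (15.3%, interval 9.16 to 24.4%, against 5.13%) and replicate 2 had 9 (10.6%, interval 5.67 to 18.9%, against 4.95%). The median best rank of members with a region was 5580.5 in the pooled list, 5400 in replicate 1 and 5363 in replicate 2, where other genes had 9639.5, 9414 and 9806.

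**Figure D1:**
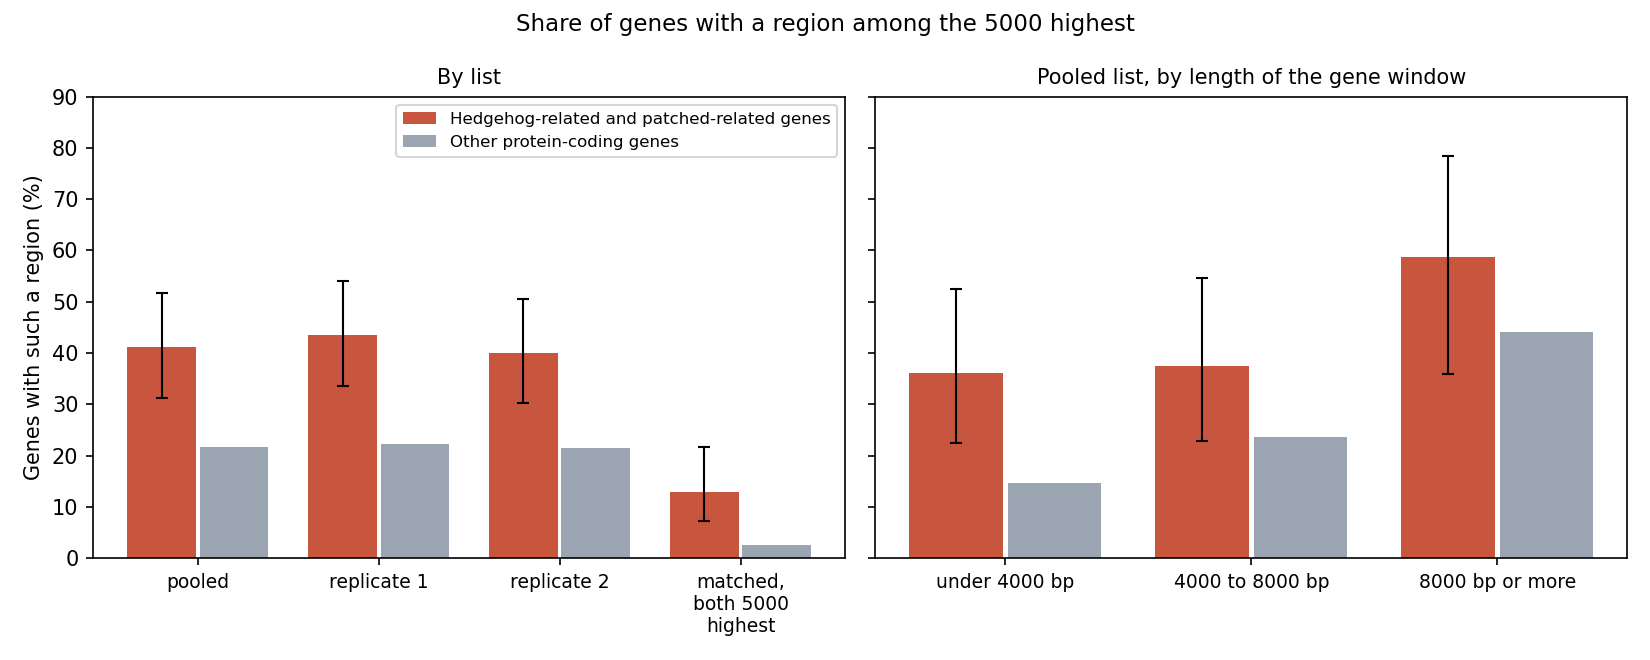
Left, share of genes (%) with a region among the 5000 highest of the pooled list and of each replicate, and with replicate summits within 150 bp that are both among the 5000 highest; right, the pooled share by length of the gene window. Bars for the 85 members carry 95% Wilson intervals over genes, and the members' bar is the taller of each pair, at 41.2% against 21.7% in the pooled list.

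Longer windows hold more regions, and the members' windows were longer, with a median of 4726 bp against 4026 bp. Per 10 kb of window the members had 1.02 pooled regions of the 5000 highest against 0.535, with 0.981 against 0.536 in replicate 1 and 0.981 against 0.527 in replicate 2. Within windows under 4000 bp, 13 of 36 members had such a pooled region (36.1%, interval 22.5 to 52.4%) against 14.7% of other genes. From 4000 to 8000 bp the members' share was 37.5% (12 of 32, interval 22.9 to 54.7%) against 23.6%, and from 8000 bp on it was 58.8% (10 of 17, interval 36.0 to 78.4%) against 44.2%. In both bands from 4000 bp on, the pooled background lay inside the interval. In replicate 1 the shortest band had 15 of 36 members (41.7%) against 1476 of 9820 other genes, and the longer bands had 37.5% against 24.7% and 58.8% against 44.2%. In replicate 2 the shares were 27.8% against 14.7%, 46.9% (15 of 32, interval 30.9 to 63.6%) against 23.2% and 52.9% against 43.5%. Chromosome I was rich in high regions, with 32.4% of its other genes having one, and it holds 9 members; without it the shares were 39.5% (30 of 76, interval 29.2 to 50.7%) and 19.9%. Chromosome V holds the most members, 32, of which 10 had a high region (31.2% against 16.9%).

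The position in the gene changed this picture. With the 2000 bp upstream alone, 39 members had a pooled region (45.9%), against 44.7% of other genes, and 12 had one of the 5000 highest (14.1% against 8.60%). With the gene body alone, an alternative chosen after the data were seen, 64 members had a region (75.3% against 54.8%) and 27 had one of the 5000 highest (31.8% against 14.7%). Of the 50 pairs of a member and a region of the 5000 highest, 25 had the summit in a coding exon, 13 in an intron and 12 upstream, where other genes had 36.6% in coding exons, 26.8% in introns and 32.4% upstream. Coding bases made up 27.9% of the members' windows and 23.6% of the others'. The members' high regions were also richer in G and C, with a median of 44.8% within 100 bp of the summit against 41.3%, and whether this moved the ranks was not tested.

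**Figure D2:**
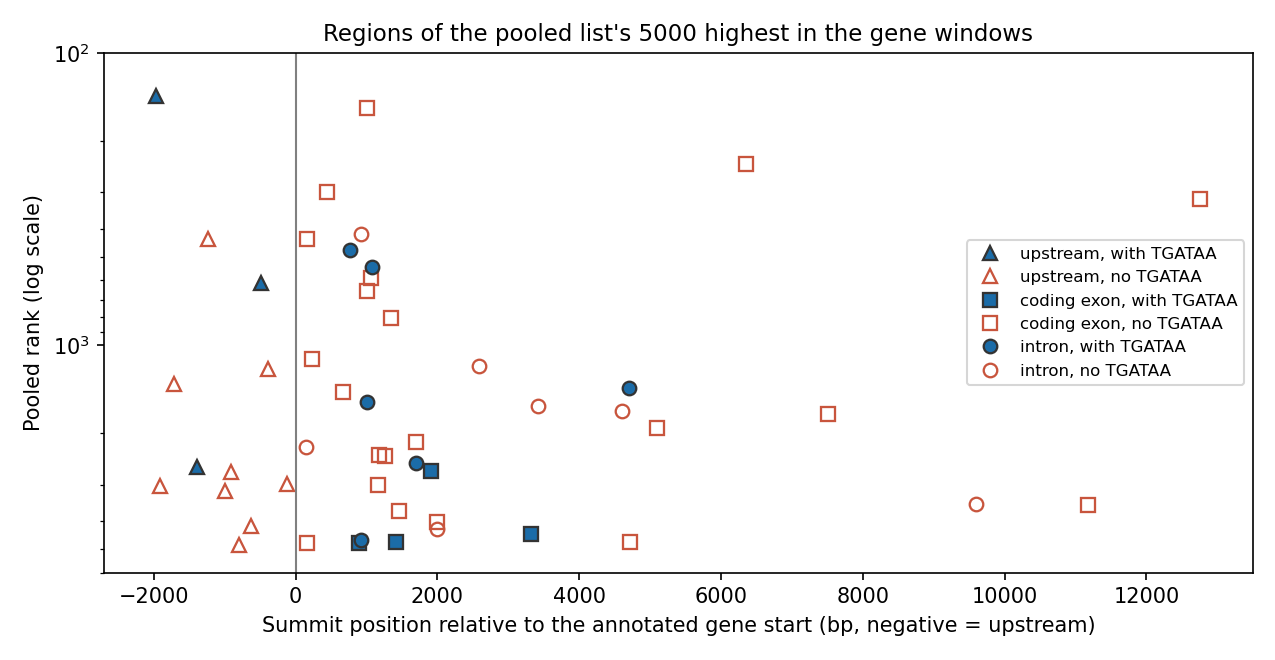
Pooled rank (log scale, higher is up) against the distance in bp of the summit from the annotated gene start for the 50 gene and region pairs of the pooled list's 5000 highest; shape gives the class and filled symbols hold TGATAA. Coding exon squares make up 25 of the 50, and 13 of the pairs are filled.

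TGATAA lay within 100 bp of 43 of the 213 distinct pooled regions in the members' windows (20.2%, interval 15.3 to 26.1%), against 16.2% of regions at other genes and 16.4% of the whole list. It lay at 13 of the 49 among the 5000 highest (26.5%, interval 16.2 to 40.3%) against 16.4%, and both intervals hold the background. In replicate 1 the shares were 13.9% against 16.5% over all regions and 17.4% against 15.8% among the 5000 highest. In replicate 2 they were 17.7% against 17.7%, and 29.2% (interval 18.2 to 43.2%) against 17.3%, where the background lay below the interval. For WGATAR the pooled shares were 35.2% against 33.8%, and 38.8% against 32.9% among the 5000 highest. Among the high pooled pairs TGATAA lay at 6 of 13 in introns, 4 of 25 in coding exons and 3 of 12 upstream. The motif was not counted by class for other genes, so these counts cannot be compared with a background.

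Regions matched between the replicates give the part of the signal that does not rest on 1 library. In 36 of 85 members a replicate 1 summit and a replicate 2 summit lay within 150 bp of each other (42.4%, interval 32.4 to 53.0%), against 29.5% of other genes. With both summits among the 10000 highest there were 14 (16.5%, interval 10.1 to 25.8%, against 6.82%), and with both among the 5000 highest 11 (12.9%, interval 7.38 to 21.7%, against 2.62%). The 11 were 6 grl, 3 ptr, 1 wrt and 1 ptc gene. Outside chromosome I there were 8 of 76 (10.5%, interval 5.43 to 19.4%, against 2.08%). By window length the 11 were 3 of 36 under 4000 bp (8.33% against 1.71%), 4 of 32 from 4000 to 8000 bp (12.5% against 2.55%) and 4 of 17 from 8000 bp on (23.5% against 6.60%). The 36 members matched at any rank did not lead in every band. Under 4000 bp they were 11 of 36 (30.6%), against 1967 of 9820 other genes. From 4000 to 8000 bp they were 16 of 32, against 32.9%. From 8000 bp on they were 9 of 17 (52.9%), below the 57.4% of other genes. In the shortest and the longest band the background lay inside the members' interval.

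The order of members within the lists was little shared. Over the 68 members with a region in both lists, Spearman's rho of the best rank was 0.08, and over 12034 other genes it was 0.20, both across genes that are not replicates and share the control. A best rank of 5000 or better in both replicates, at any position in the window, was found for 16 members (18.8%, interval 11.9 to 28.4%), against 8.22% of other genes. It was found in replicate 1 alone for 21 members (24.7% against 14.1%), in replicate 2 alone for 18 (21.2% against 13.2%) and in neither for 30 (35.3% against 64.5%). Every one of the 49 high pooled regions had a summit of at least 1 replicate within 150 bp, and 31 had both (63.3%), against 66.7% of high regions at other genes. The pooled list is made from the same reads as the replicates, so its ranks are not a further measurement, and a nearby replicate summit is not independent of them. The share with at least 1 replicate summit was not counted for other genes.

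**Figure D3:**
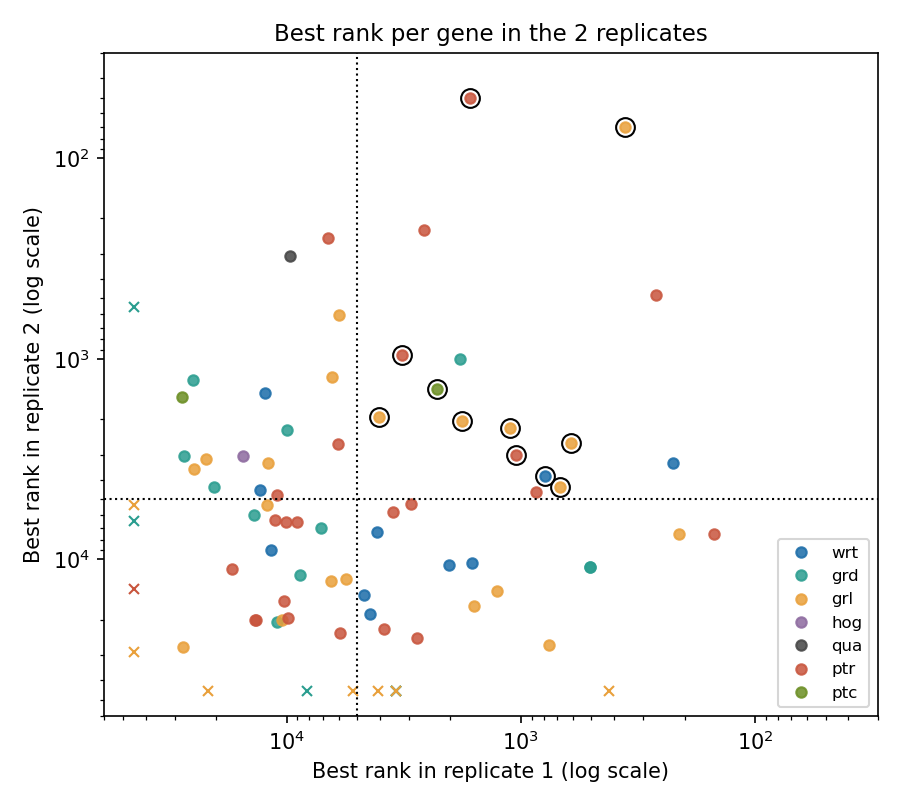
Best rank of each member in replicate 1 against replicate 2 (both axes log, higher rank up and to the right), coloured by subfamily; dotted lines mark rank 5000, crosses at the left and bottom edges are members with a region in 1 list alone, and circles mark the 11 members with matched summits that are both among the 5000 highest. The 16 members above and to the right of both dotted lines are high in each list.

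The ground-like genes, whose products carry the Ground-like domain without a Hog domain, had 13 of 31 members in the pooled 5000 highest. This was 41.9% against 21.7% of other genes. Replicate 1 had 13 (41.9% against 22.3%) and replicate 2 had 11 (35.5% against 21.5%). The highest ground-like gene was grl-16 (WBGene00001725), where a region on chromosome I from 576910 to 577259, 1965 bp upstream of the start, had a pooled signal value of 36.5 and rank 140. Its summit was at rank 1035 in replicate 1 (signal value 17.3) and 488 in replicate 2 (19.1), and it held a TGATAA. This was the best matched pair of the whole family, and grl-16 had 8 pooled regions in a window of 4948 bp. A coding exon region of grl-16 at pooled rank 1444 was at 70 in replicate 2 and had no replicate 1 summit within 150 bp.

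The next was grl-21 (WBGene00001730) on chromosome IV, with a single pooled region from 10737746 to 10738095 in a coding exon, at pooled rank 300 (signal value 33.2). It ranked 1110 in replicate 1 and 2205 in replicate 2, with signal values of 17.2 and 15.1. The grl-17 coding exon region, at pooled rank 650, was at 1785 in replicate 1 and 2050 in replicate 2, with the summits at the same base. Both regions thus stood in the upper ranks of each library, with no WGATAR within 100 bp of the pooled summit. The matched pair of grl-1, named after its values were seen, was at 4039 and 1943, with the summits 138 bp apart.

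Among the other ground-like genes, grl-15 had an intron region at pooled rank 416, at 682 in replicate 1 and 4584 in replicate 2. Upstream of grl-29 a region at pooled rank 1359 was at 608 and 2622, although the nearest annotated start was that of its neighbour grl-30. The grl-22 coding exon region, at pooled rank 1112, was lower in both libraries, at 5574 and 12531. Upstream of grl-11 a region at pooled rank 2996, also in the window of ced-11, was at 1585 in replicate 1 and 22852 in replicate 2. A region upstream of grl-30, at pooled rank 3035, was at 13945 and 3289. Its nearest annotated start was that of grl-29, and it also lay in the window of T24A6.20.

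Other members of the subfamily ranked high in 1 library alone. The grl-2 intron region with TGATAA (WBGene00001711, chromosome V, 12945666 to 12946015) had a pooled signal value of 31.4 and rank 471, ranked 422 in replicate 1 and had no replicate 2 region anywhere in the window. Chosen after the values were seen, grl-4 had a best rank of 212 in replicate 1, 7469 in replicate 2 and 11621 in the pooled list. In the same way grl-14 ranked 609 in replicate 2 and 5992 in replicate 1 but had no pooled region.

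All 10 warthog genes had a pooled region, against 74.1% of other genes. The 5000 highest held 3 of 10 in the pooled list (against 21.7% of other genes), 7 in replicate 1 (against 22.3%) and 4 in replicate 2 (against 21.5%). The leading one was wrt-9 (WBGene00006955) on the X chromosome, which has the longest window of the family at 16684 bp. Its coding exon region from 1589222 to 1589571 lay at pooled rank 316 (signal value 32.9), 788 in replicate 1 (18.1) and 3837 in replicate 2 (13.6), with the summits at the same base. A second wrt-9 region, 1399 bp upstream, held 1 TGATAA and 2 AGATAG at pooled rank 2617, but was at 10329 in replicate 1 and 7283 in replicate 2. The epidermally expressed wrt-2 had a coding exon region at pooled rank 2147 that ranked 223 in replicate 1 and had no replicate 2 summit within 150 bp, although another position of its window ranked 3315 there. In wrt-8, a coding exon region at pooled rank 3013, also in the window of clec-229, was at 11523 and 10680.

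The groundhog genes were all represented in the pooled list, against 74.1% of other genes. The 5000 highest held 5 of 16 in the pooled list (31.2% against 21.7%), 5 in replicate 1 (31.2% against 22.3%) and 6 in replicate 2 (37.5% against 21.5%). Matched summits among the 5000 highest of both replicates were found for 0 of 16, and with 2.62% of other genes having them a count of 0 is near the background. The top entry belongs to 2 members, since 1 region of chromosome IV, from 3439636 to 3439985, lies in a coding exon of grd-3 and 1244 bp upstream of its neighbour grd-10. Its pooled rank was 432 (signal value 31.8), with 508 in replicate 1 and 10931 in replicate 2. The grd-16 intron region with TGATAA, named for its printed sequence, had pooled rank 1568 and replicate 1 rank 1819 and no replicate 2 summit within 150 bp, although another position of the window ranked 1001 there. Upstream of grd-5 a region at pooled rank 3147 was at 20522 and 4362.

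Quahog, qua-1 (WBGene00004264), is needed for moulting and for growth. Its highest region lay upstream, on chromosome II from 8198143 to 8198492 with the summit 485 bp before the annotated start. The pooled signal value was 30.2 and the rank 611. Replicate 2 placed it at 307 with a signal value of 20.3, whereas replicate 1 had no summit within 150 bp, and its best region in the window ranked 9715 (signal value 11.2). The TGATAA printed above is therefore in a region that rests on replicate 2. The related gene hog-1 (WBGene00001984), whose product has a Hog domain, had an upstream region at pooled rank 4812 (signal value 21.9) that was at 15421 in replicate 1 and 9088 in replicate 2, where another position ranked 3036.

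**Figure D4:**
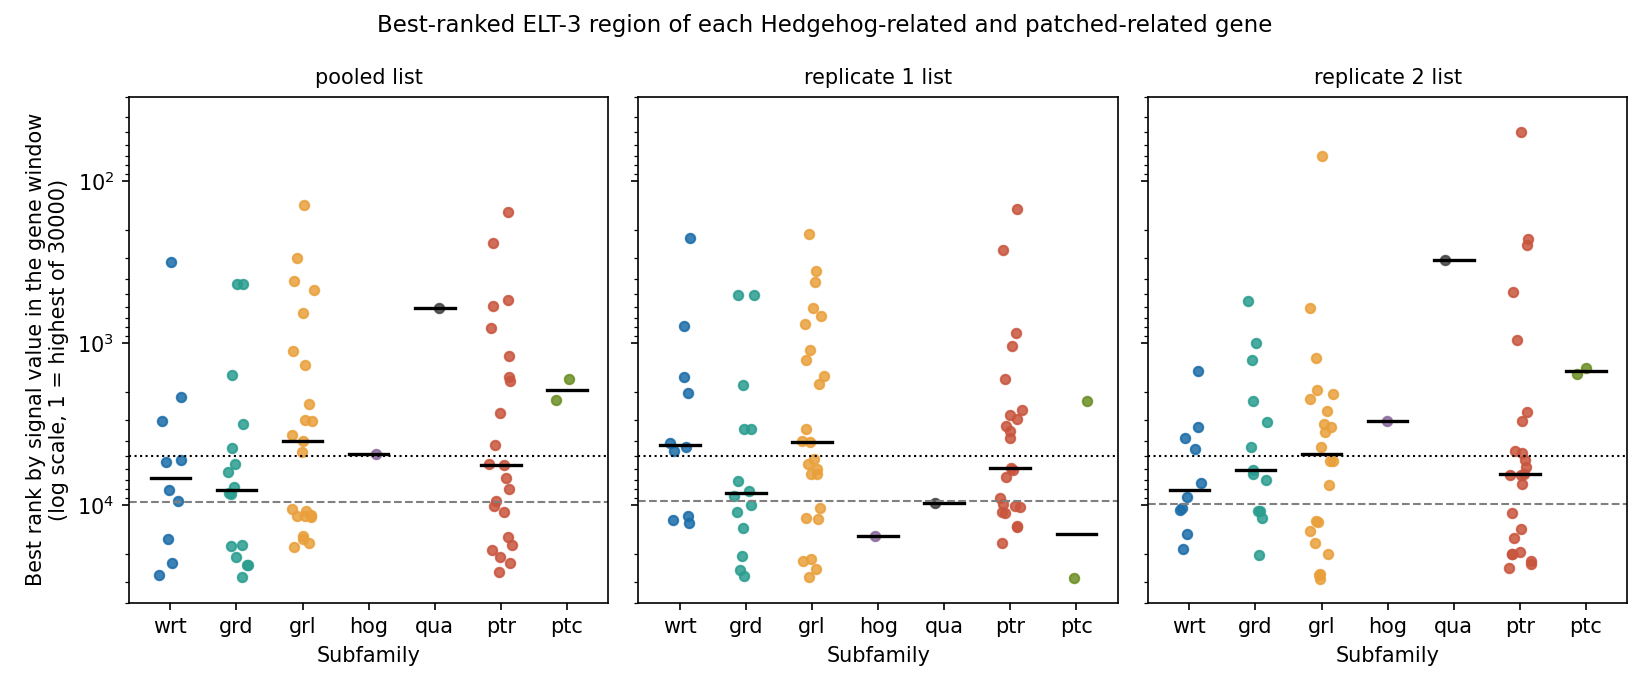
Best rank by signal value (log scale, 1 is the highest of 30000) of each member with a region in the gene window, by subfamily, in the pooled list and in each replicate. Short black lines are subfamily medians, the dashed line is the median of other protein-coding genes, and the dotted line is rank 5000; the single qua point moves from 9715 in replicate 1 to 307 in replicate 2.

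On the receptor side, both patched homologues had a pooled region in the 5000 highest. Their windows were 9182 and 9294 bp long, and 44.2% of other genes with windows of 8000 bp or more had such a region. The gene ptc-3 (WBGene00004210) is an essential gene. Its intron region on chromosome II from 2847818 to 2848167, 4600 bp inside the gene, had a pooled signal value of 26.2 and rank 1676, and its replicate ranks were close, 4065 (signal value 13.7) and 3570 (13.8). The gene ptc-1 (WBGene00004208) acts in cytokinesis of the germ line. Its only pooled region, an intron region 141 bp from the start at rank 2230, was at 1552 in replicate 2 and had no replicate 1 summit within 150 bp. The best replicate 1 region in the ptc-1 window ranked 28068, so the 2 libraries disagreed there.

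The patched-related genes had the longest windows of the larger subfamilies, with a median of 7953.5 bp, and 105 of the family's 216 pairs of gene and pooled region. The pooled 5000 highest held 10 of 24 (41.7% against 21.7% of other genes). Replicate 1 had 11 (45.8% against 22.3%) and replicate 2 had 9 (37.5% against 21.5%). All ptr windows were at least 5489 bp long. In the pooled list, 23.6% of other genes with windows of 4000 to 8000 bp had such a region, and 44.2% from 8000 bp on. The highest was ptr-2 (WBGene00004217) on chromosome I, a coding exon region from 3791615 to 3791964 at pooled rank 154 (signal value 36.1), at 6131 in replicate 1 (12.6) and 482 in replicate 2 (19.1). The best replicate 1 region of ptr-2, at rank 265, lay elsewhere in the window. In ptr-11 (WBGene00004225), with 11 pooled regions in 11592 bp, a coding exon region at pooled rank 240 was at 50 in replicate 2 and 16235 in replicate 1. A separate ptr-11 intron region with TGATAA matched better, at 1656 and 3015. Both lists thus held a summit at each of these ptr-11 positions, but they differed in which ranked highest. At the coding exon region the replicate 1 signal value of 9.59 was below that list's median of 9.85.

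Closer agreement was seen at ptr-23 and ptr-3. In ptr-23 an intron region with TGATAA, at pooled rank 541, was at 3232 in replicate 1 and 1734 in replicate 2. In ptr-3 a coding exon region at pooled rank 806 was at 1047 and 3020. In ptr-20 a coding exon region at pooled rank 591 was at 6689 and 596. The upstream region of ptr-16, at pooled rank 1209 and also in the window of T21H3.5, was at 228 in replicate 2 and 22698 in replicate 1. The reference marks 74.6% of the bases around its summit as repetitive or of low complexity.

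The remaining patched-related genes with a high matched region were ptr-18, ptr-21 and ptr-14. An intron region of ptr-18 at pooled rank 1616 was at 2960 and 5297, with the nearest start that of Y38F1A.4. In ptr-21 a coding exon region with TGATAA at pooled rank 2698 was at 11325 and 4633. An intron region of ptr-14 with TGATAA, at pooled rank 4635, was at 6035 in replicate 1 and 15415 in replicate 2. By contrast ptr-24, chosen after the values were seen, held replicate 1's highest region of the family at rank 149, with no replicate 2 summit within 150 bp.

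Windows of neighbouring genes overlap in this compact genome, so a region can belong to several genes. Of the 213 distinct pooled regions at members, 35 (16.4%) also lay in the window of another protein-coding gene and 3 lay in the windows of 2 members. The nearest annotated start was that of a member for 45 of the 49 high regions, and counting each region for its nearest start alone gave 36 members in the 5000 highest (42.4% against 19.4%).

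The pathway's other homologues were counted by the same rule. Of 8 listed genes, 3 had a pooled region in the 5000 highest (37.5% against 21.7% of other genes), 5 in replicate 1 (62.5% against 22.3%) and 4 in replicate 2 (against 21.5%). Their windows were long, from 6097 to 26312 bp. Among other genes with windows of 8000 bp or more, 44.2% had such a region in the pooled list, 44.2% in replicate 1 and 43.5% in replicate 2. From 4000 to 8000 bp these shares were 23.6%, 24.7% and 23.2%. The moulting gene lrp-1, which encodes a megalin-like receptor, had the highest, at pooled rank 102, 324 in replicate 1 and 136 in replicate 2, in a window of 21968 bp with 18 pooled regions. The Gli-type zinc finger gene tra-1, which directs sex determination, ranked 2022 in the pooled list, 3264 and 2373 in the replicates. The Niemann-Pick type C homologue ncr-2 ranked 3378 in the pooled list, 1081 and 3935 in the replicates, and ncr-1 ranked 8195, 2195 and 4047. The dispatched-like che-14 ranked 12352, 5228 and 18552 in the pooled list, replicate 1 and replicate 2, and the patched-related daf-6 ranked 14415, 12925 and 11744. The SCAP homologue scp-1 ranked 13250, 704 and 12653. The patched-domain gene ptd-2 ranked 20460 in the pooled list and 15249 in replicate 2, with no replicate 1 region. At elt-3 itself, the gene of the tagged factor, the best ranks were 12, 6 and 5. The line also carries the tagged ELT-3 transgene, and no untagged sample was analysed here. Whether these ranks reflect binding at elt-3 was therefore not tested.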

How the data were processed

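ELT-3 ChIP-seq was measured in 2 biological replicates of 1 group of L2 larvae. The authors deposited ce11 lists of regions, called for each replicate and for the pooled reads against 1 control alignment, per the file listing; which programs aligned reads and called regions, and at what IDR threshold, is not given in the sources used here. The deposited signal value of each region is used to rank within a list, and the deposited q-value is given there as −log10 of q. The ce10 lists were not used. Gene models came from Ensembl release 115 (WBcel235), and 12 mitochondrial protein-coding genes were left out; sequences and repeat marks came from the RefSeq genome of that build. Summits, as start plus offset, were assigned to gene bodies and 2000 bp upstream, and the motif was sought within 100 bp of summits on both strands. Assignment, matching and motif search were tested on simulated data. Members and lists were chosen with earlier results of these data known. Genes named were the 15 highest members, those with a pooled region among the 5000 highest matched in both replicates, those with an IDR region, the 2 highest of wrt, grd, grl and ptr, all hog, qua and ptc genes, 8 pathway homologues and elt-3. Alternatives changed the gene window, rank limit, summit distance, motif, list and ranking column. Wilson intervals are at 95%; depth is unknown. Python 3.11.15, numpy 2.4.6, pandas 2.3.3, scipy 1.17.1, statsmodels 0.14.6 and matplotlib 3.10.9 were used.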

Additional observations from a re-analysis of the deposited data

How the results depend on the processing

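Of 41 alternatives over 6 values, 22 left the value within a set limit and 19 moved it. The limit was a count within 1.5 times, a share inside its first interval or a median rank within 1 SD of the replicates' medians. These limits differ in width, since that SD rests on the medians 5400 and 5363, and they do not compare members with other genes. The cause of a move was not tested unless the setting itself narrows or widens the rule. With the upstream 2000 bp alone, the members with any pooled region numbered 39 and those in the 5000 highest 12. Those matched in both replicates numbered 13 (15.3% against 11.8% of other genes), and the median best rank was 11752 (others 13350). The count in the 5000 highest was 14 for the 1000 highest, and matched members numbered 14 and 11 with both summits in the 10000 and 5000 highest. The median best rank was 5630.5 with 1000 bp upstream (others 10342) and 4936 with 5000 bp (others 7833). It was 12617.2 (others 15100) as the median of a gene's regions, and 5363 to 5400 with a single replicate's list (others 9414 to 9806). The TGATAA share was 35.2% for WGATAR (others 33.8%) and 39.4% for HGATAR (others 41.4%). For TGATAA it was 9.86% within 50 bp (others 8.29%), 31.5% within 200 bp (others 30.4%) and 26.5% in the 5000 highest (others 16.4%). With the replicate 1 list alone it was 13.9% (others 16.5%), and with the replicate 2 list alone 17.7% (others 17.7%). The 8 pathway homologues gave 4 to 5 calls with a single list. Single-replicate counts of members were 73 to 76 with any region and 34 to 37 in the 5000 highest. The body-only, chromosome I, window length and single-list pathway settings were chosen after seeing the data. No paired analysis was possible because there is 1 group. With 85 members and 2 libraries of unknown depth, the absence of a region is not the absence of binding.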
